A study of Homo sapiens with 13 samples.

Results

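A set of 9 genes of the osteoblast programme was followed in a human osteoblast line: the transcription factors RUNX2, DLX5, SP7 and MSX2, the mineralization enzyme gene ALPL, and the bone matrix protein genes SPARC, SPP1, IBSP and BGLAP. They were chosen by name, as the genes of the deposited count table whose Ensembl identifier maps to 1 of these symbols. All 9 were found among the 43836 genes of the table. Of these 9 genes, 7 had enough reads to be tested and 2 (SP7 and IBSP) did not.

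The cells were hFOB 1.19, an immortalized human fetal osteoblast line, so that every library comes from 1 line. Messenger RNA was sequenced in 12 libraries of 5 groups. Positive controls (PC, 2 libraries) were grown with 10% fetal bovine serum (FBS), and negative controls (NC, 2 libraries) were kept without FBS. Per the study's methods both received the DMSO vehicle. The other groups were also kept without FBS and given a compound at 1 µg/mL: resveratrol (RES, 3 libraries), the anthocyanin peonidin-3-O-glucoside (POG, 3 libraries), or the treatment labelled DEG (2 libraries), an abbreviation that the labels do not spell out. How long the cells stayed with a compound before RNA was taken is not given in the sources used here. The labels do not say whether the libraries of a group came from separate cultures, so p-values measure only the spread between these libraries.

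RUNX2 is the transcription factor that commits mesenchymal cells to the osteoblast fate, and mice without it form no bone. DLX5 and MSX2 are homeodomain factors that act upstream of or beside RUNX2, and SP7 (osterix) is a zinc finger factor needed after RUNX2. The cells they drive first secrete a collagen-rich matrix and then mineralize it: ALPL, tissue-nonspecific alkaline phosphatase, removes the mineralization inhibitor pyrophosphate, and SPARC (osteonectin), SPP1 (osteopontin), IBSP (bone sialoprotein) and BGLAP (osteocalcin) are non-collagen proteins of bone matrix, of which BGLAP and IBSP are markers of late, mineralizing osteoblasts.

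RUNX2 recognises a short DNA core, and the sequences before the start sites of the 5 matrix and mineral genes are given below to show where these letters do and do not occur. The sequences are those of RefSeq on GRCh38.p14, written 5′ to 3′ on the gene's strand. The capitals mark a single form of the RUNX core, TGTGGT or its reverse complement ACCACA, called the core below. Bases inside annotated exons of protein-coding genes were left off.
ALPL, chr1:21509173-21509396, + strand: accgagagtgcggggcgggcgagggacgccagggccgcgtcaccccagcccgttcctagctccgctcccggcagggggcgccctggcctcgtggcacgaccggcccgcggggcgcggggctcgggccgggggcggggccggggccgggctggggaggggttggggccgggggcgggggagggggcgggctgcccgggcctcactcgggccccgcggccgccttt
SPARC, chr5:151686976-151687165, - strand: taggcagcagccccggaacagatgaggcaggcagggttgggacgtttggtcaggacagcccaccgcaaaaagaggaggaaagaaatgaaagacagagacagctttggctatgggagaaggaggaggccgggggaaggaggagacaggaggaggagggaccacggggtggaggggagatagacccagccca
SPP1, chr4:87975464-87975666, + strand: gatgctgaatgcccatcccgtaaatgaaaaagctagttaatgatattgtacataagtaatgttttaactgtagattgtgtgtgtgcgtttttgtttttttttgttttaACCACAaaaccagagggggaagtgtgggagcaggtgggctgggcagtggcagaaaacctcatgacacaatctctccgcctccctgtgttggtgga
IBSP, chr4:87799304-87799553, + strand: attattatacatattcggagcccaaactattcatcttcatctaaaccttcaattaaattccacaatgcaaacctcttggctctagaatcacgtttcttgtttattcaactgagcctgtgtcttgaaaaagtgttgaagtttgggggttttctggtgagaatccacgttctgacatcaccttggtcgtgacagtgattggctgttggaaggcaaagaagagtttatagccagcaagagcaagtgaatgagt
BGLAP, chr1:156241934-156242183, + strand: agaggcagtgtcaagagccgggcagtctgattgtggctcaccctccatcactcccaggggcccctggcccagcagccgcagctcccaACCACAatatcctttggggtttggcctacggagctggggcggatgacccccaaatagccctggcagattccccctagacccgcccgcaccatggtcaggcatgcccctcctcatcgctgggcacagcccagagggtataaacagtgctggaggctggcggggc
The core occurs once before BGLAP, with its first base at -163 from the RefSeq start site, and once before SPP1, at -142. These letters do not occur in the ALPL, SPARC or IBSP windows. Other forms of the RUNX core were not searched for, so those windows may still hold a RUNX site. The 250 bases before the first RefSeq start site of RUNX2 itself, not trimmed of exons, hold 2 copies, at -191 and -87. The copy at -87 lies within the annotated span of RUNX2. Over all 35116 RefSeq windows of 250 bases, 10.98% hold TGTGGT or ACCACA. A homeodomain core, TAATTG or CAATTA, lies in 6.70% of windows and occurs before IBSP. The ALPL window shown holds 4 GC boxes, GGGCGG or CCGCCC, and the BGLAP window 2, a motif present in 42.6% of windows. ALPL has 3 RefSeq windows, of which window 2 is shown, and windows 1 and 3 hold 0 GC boxes. RefSeq entries were found for 7 of the 9 genes. These are matches of letters only, and no binding was measured.

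The libraries held 38464619 to 51416358 counted reads, and 21647 to 22299 genes had a read in all libraries except RES replicate 2, where 22926 had one. Mitochondrial genes took 3.03% to 3.91% of the reads. Levels are given as reads and as CPM, reads scaled to a common library size, with library totals corrected by the trimmed mean of M values (TMM). In bulk RNA, fewer cells expressing a gene and less RNA per cell cannot be told apart.

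Within the 9 genes the levels spanned a wide range. Per kilobase of annotated exon, the mean level over the 12 libraries was 231 CPM per kb for SPARC, 5.83 for RUNX2, 1.52 for ALPL, 1.29 for BGLAP, 0.667 for DLX5, 0.248 for MSX2, 0.226 for SPP1, 0.0299 for SP7 and 0.00119 for IBSP. For comparison, the type I collagen chains COL1A1 and COL1A2, the main protein of bone matrix, stood at 297 and 114 CPM per kb. SPARC was therefore expressed at the level of the collagen genes, and ranked 56 of the 17092 genes tested by CPM. The exon length of SPP1, 7250 bases, is the union of all its annotated transcripts and is long for this gene, which lowers its value per kilobase.

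**Figure D1:**
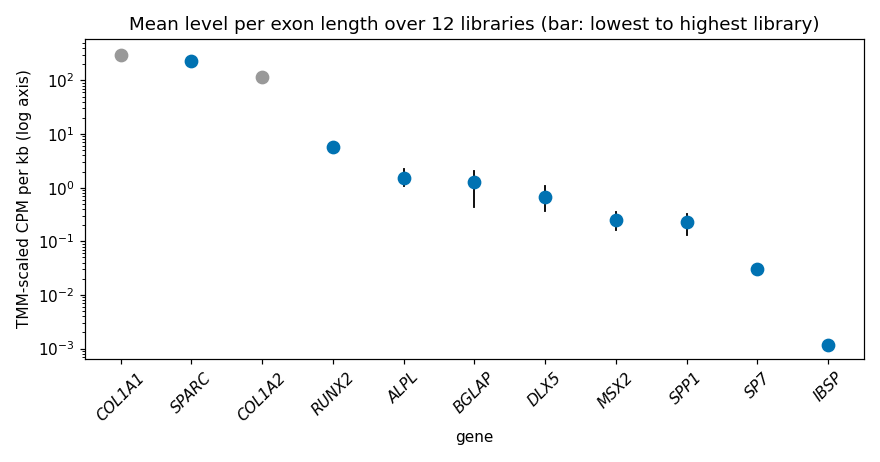
Mean level of each gene per kilobase of annotated exon over the 12 libraries (points, TMM-scaled CPM per kb, log axis), with bars from the lowest to the highest library; blue points are the 9 genes, and grey points are COL1A1 and COL1A2. SPARC lies between the collagen genes at 231 CPM per kb, and IBSP is lowest at 0.00119.

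The label osteoblast was set against markers of other cell types. The early osteoblast genes RUNX2, ALPL, SPARC, COL1A1 and COL1A2 had reads in every library, as did the late gene BGLAP, with 19 to 90 reads. SP7 had 53 reads in all libraries together and 0 in NC replicate 1. IBSP, also a late gene, had 1 read in all libraries together, and MEPE, an osteocyte gene, none. Summed over 5 osteocyte markers (SOST, DMP1, MEPE, FGF23 and PHEX) the level stayed between 0.0503 and 0.430 CPM. Of 6 adipocyte markers PPARG alone averaged at least 1 CPM over the 12 libraries, and LPL had no reads. By the same mean over all libraries, SOX9 and COL10A1 of 7 chondrocyte markers, ACTA2 and CNN1 of 6 muscle markers, CTSK of 6 osteoclast markers and PECAM1 of 5 endothelial and blood markers reached 1 CPM. Single group means also passed 1 CPM for COL2A1, SOX5, DES, ACP5 and CD14, at most 1.40 CPM (CD14 in PC). Reads in every library and a mean of 1 CPM are unlike measures. MMP9, PLIN1, COL2A1, ACAN, MYOD1 and DES also had reads in every library. Group means were 9.32 to 11.7 CPM for PPARG, 9.04 to 12.3 for CTSK, 26.0 to 30.2 for ACTA2 and 28.2 to 42.7 for CNN1. These lay above ALPL, at 3.46 to 6.63 CPM, and below RUNX2, at 45.6 to 49.4 CPM.

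Among the transcription factors, RUNX2 (ENSG00000124813.20; hg38 chromosome 6, 45328157 to 45664349, plus strand) was the most abundant. It had 2333 and 2177 reads in the PC libraries, 1917 and 1779 in NC, 2032, 2097 and 1975 in RES, 2311, 2127 and 2234 in POG, and 1842 and 1905 in DEG. Scaled for depth, group means ran from 45.6 ± 1.28 CPM in RES (SD, n = 3) to 49.4 ± 3.11 CPM in PC (SD, n = 2). The groups lay in the order PC, POG, DEG, NC and RES, and no pair of neighbours in that order differed by the exact test of edgeR, with FDR between 0.670 and 0.958. Against NC the log2 fold change of RUNX2 was 0.06 with POG (95% interval -0.04 to 0.17, FDR 0.510), 0.07 in PC (-0.05 to 0.18, FDR 0.367), 0.03 with DEG (-0.09 to 0.14, FDR 0.872) and -0.05 with RES (-0.15 to 0.06, FDR 0.670). At this depth the upper bound for POG over NC is a 1.12-fold difference. The nearest to a call were the differences from RES, the lowest group: PC over RES was 0.11 on the log2 scale (0.01 to 0.22, FDR 0.0557) and POG over RES 0.11 (0.02 to 0.20, FDR 0.0611). The PC and POG libraries all lay above the 3 RES libraries. POG over RES was called with dispersions from POG and RES alone (exact test FDR 0.0150) and in no other alternative. PC over RES was not run under the alternatives.

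DLX5 (ENSG00000105880.4; chromosome 7, 97020396 to 97024950, minus strand) was sparse. Its reads numbered 52 and 52 in PC, 28 and 40 in NC, 29, 59 and 46 in RES, 66, 81 and 48 in POG, and 56 and 46 in DEG. POG had the highest mean, 1.44 ± 0.402 CPM (SD, n = 3), and NC the lowest, 0.864 ± 0.200 CPM (SD, n = 2), and all POG libraries were above both NC libraries. The POG difference from NC was 1.66-fold (log2 fold change 0.74, SE 0.301, 95% interval 0.12 to 1.35) and was not called by the exact test (FDR 0.0787). It was called without POG replicate 3 (FDR 0.0236), with dispersions from NC and POG alone (FDR 0.0424) and when only genes averaging at least 1 CPM were tested (FDR 0.0380). Over all alternatives its FDR ran from 0.0236 to 0.514. The DEG difference from NC was 0.59 on the log2 scale (-0.09 to 1.28, FDR 0.321). POG over RES was 0.53 (0.005 to 1.05, exact test FDR 0.108), and the libraries overlapped. That difference was called in 2 of 13 alternatives, without RES replicate 2 (FDR 0.0343) and without POG replicate 3 (0.0304).

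SP7 (ENSG00000170374.5; chromosome 12, 53326575 to 53345315, minus strand) had at most 8 reads in a library. There were 3 and 6 reads in PC, 0 and 5 in NC, 4, 4 and 5 in RES, 6, 8 and 6 in POG, and 2 and 4 in DEG. The 3 POG libraries were above both NC libraries, while the other groups overlapped NC. Pooled over a group's libraries the level was 0.147 CPM in POG (exact 95% Poisson interval 0.0900 to 0.228) and 0.0637 CPM in NC (0.0207 to 0.149). SP7 fell below the filter on low counts. In a test of all 29555 genes with a read, POG over NC came to 1.19 on the log2 scale with a 95% interval from -0.77 to 3.15 (FDR 0.724), and a difference was not detectable at this depth.

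MSX2 (ENSG00000120149.8; chromosome 5, 174724582 to 174730896, plus strand) had 30 and 24 reads in PC, 30 and 22 in NC, 35, 20 and 17 in RES, 19, 23 and 23 in POG, and 27 and 14 in DEG. Its group means lay between 0.479 CPM in POG and 0.664 CPM in NC. It had no call in any comparison, and the test for any difference among the 5 groups gave an FDR of 0.845. The intervals are wide: the POG difference from NC was -0.47 on the log2 scale, with bounds of -1.27 and 0.34 (FDR 0.506).

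**Figure D2:**
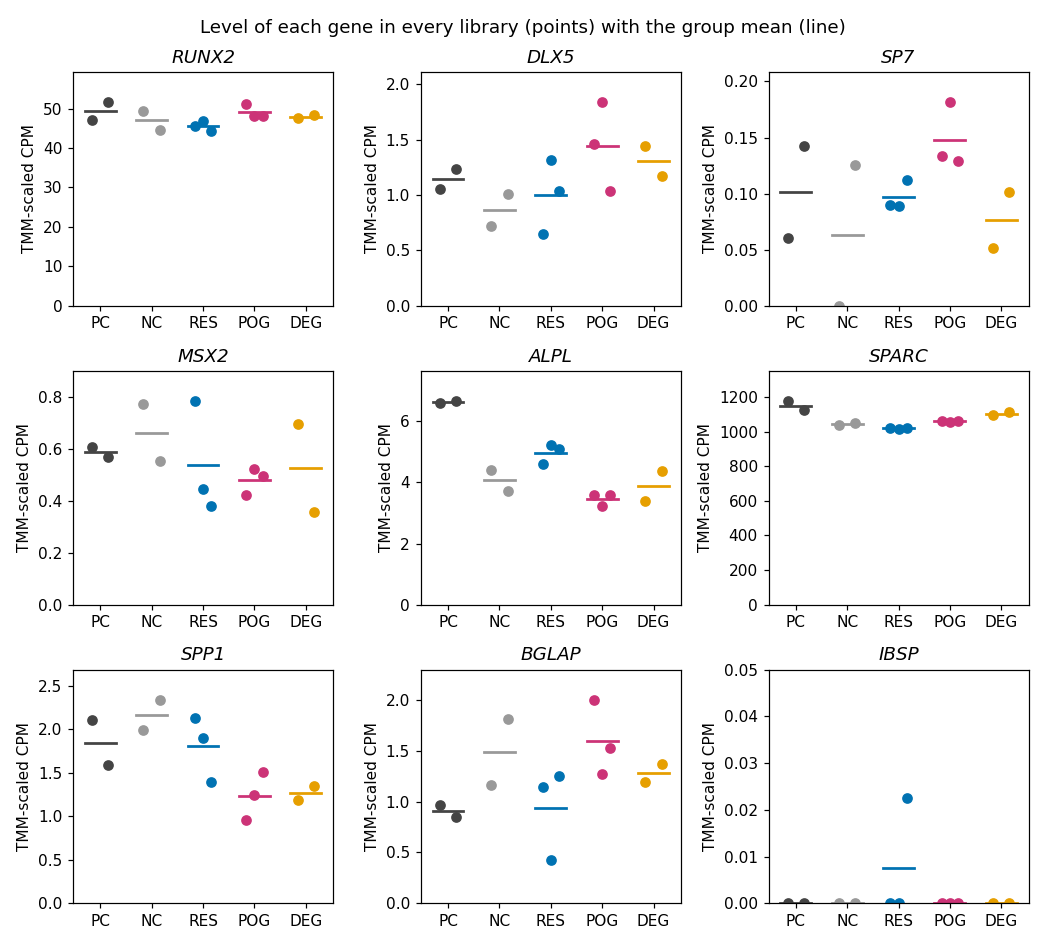
Level of each of the 9 genes in every library (points, TMM-scaled CPM, linear axes that start at 0 and differ between panels) with the group mean as a line. ALPL is highest in both PC libraries, SPP1 is lower in the POG and DEG libraries than in NC, and BGLAP is lowest in RES replicate 2.

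The comparison of PC with NC asks what serum changes in these genes. Between PC and NC 2 of the 7 tested genes were called, ALPL and SPARC, both higher with serum, where 42.4% of all 17092 genes were called. ALPL (ENSG00000162551.13; chromosome 1, 21509397 to 21578410, plus strand) had 326 and 281 reads in PC, 171 and 148 in NC, 205, 234 and 227 in RES, 161, 142 and 167 in POG, and 131 and 172 in DEG. These are 6.59 and 6.66 CPM in PC and 4.41 and 3.72 CPM in NC, and both PC libraries lay above all 10 serum-free libraries. ALPL rose 1.63-fold with serum (log2 fold change 0.70, SE 0.138, 95% interval 0.42 to 0.99, edgeR exact test FDR 1.50e-06), and the call held under all 11 alternatives.

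SPARC (ENSG00000113140.10; chromosome 5, 151661096 to 151686975, minus strand), whose product binds collagen and calcium, had 58177 and 47389 reads in PC and 40259 and 41831 in NC. Scaled, it stood at 1177 and 1123 CPM in PC, 1039 and 1051 in NC, 1024, 1019 and 1023 in RES, 1065, 1055 and 1060 in POG, and 1097 and 1114 in DEG. Libraries of a group lay close together, and both PC libraries were above all 10 others. SPARC rose 1.10-fold with serum (log2 fold change 0.14, SE 0.0264, FDR 2.32e-04). With dispersions from PC and NC alone the FDR was 0.0619.

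The matrix genes SPP1 and BGLAP had no call with serum. SPP1 differed by -0.22 on the log2 scale between PC and NC (-0.71 to 0.27, FDR 0.491). BGLAP differed by -0.70 (-1.40 to 0.00, FDR 0.0858), with both PC libraries below both NC libraries, and was called without NC replicate 1 (FDR 0.0402) and when only genes averaging at least 1 CPM were tested (FDR 0.0452). Markers of other cell types moved between these groups as well: the summed level of 7 chondrocyte markers was 8.65 to 8.84 CPM in PC and 5.96 to 7.87 in NC, and that of 6 smooth and skeletal muscle markers was 68.9 to 71.3 CPM in PC and 56.4 to 58.1 in NC. Within these lists the markers did not move together. SOX9 averaged 6.11 CPM in PC and 2.67 in NC, whereas COL2A1 (0.257 and 1.00), SOX5 (0.515 and 1.06), ACAN (0.140 and 0.379) and COL10A1 (1.57 and 1.75) had the lower mean in PC. CNN1 averaged 42.7 CPM in PC and 28.2 in NC, and ACTA2 26.0 and 27.8. The part of these markers in the result was not tested.

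With the compounds, SPP1 was the only one of the 7 tested genes called against NC by the exact test as reported. POG and DEG each had this 1 call, and RES had 0 (7 genes tested). Of all genes tested, 14.5% were called with POG, 9.63% with DEG and 11.2% with RES. For RES, 2 of the 7 genes (ALPL and BGLAP) had an unadjusted p under 0.05 in the exact test. The share of all genes under that unadjusted threshold was not counted, so this count does not set the 2 apart. The quasi-likelihood test and DESeq2 also called 0 for RES. The 3 comparisons share the same 2 NC libraries.

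SPP1 (ENSG00000118785.13; chromosome 4, 87975667 to 87983532, plus strand) encodes a phosphorylated matrix protein that binds integrins and CD44. It had 104 and 67 reads in PC, 77 and 93 in NC, 95, 85 and 62 in RES, 43, 55 and 70 in POG, and 46 and 53 in DEG. In CPM, NC stood at 1.99 and 2.34, POG at 0.954, 1.25 and 1.51, and DEG at 1.19 and 1.35. Every POG and DEG library was below both NC libraries. SPP1 fell 1.75-fold with POG (log2 fold change -0.81, SE 0.229, 95% interval -1.27 to -0.34, exact test FDR 0.00470) and 1.70-fold with DEG (-0.77, SE 0.258, -1.30 to -0.24, FDR 0.0318). The POG call was lost without NC replicate 2 (FDR 0.143) and without POG replicate 1 (FDR 0.0598). The DEG call was lost in 6 of 11 alternatives, among them the quasi-likelihood test (FDR 0.0614), DESeq2 (FDR 0.0708), and without NC replicate 1 (0.0709), NC replicate 2 (0.296), DEG replicate 1 (0.283) or DEG replicate 2 (0.113). With RES the difference from NC was -0.26 (-0.71 to 0.19, FDR 0.546), and the libraries overlapped. The summed level of the 5 endothelial and blood markers, of which PECAM1 and CD14 were highest, was 3.15 to 3.32 CPM in NC, 1.61 to 2.00 in POG and 2.09 to 2.20 in DEG, and its part in the SPP1 result was not tested.

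SPARC with DEG lay near the threshold. Both DEG libraries, at 1097 and 1114 CPM, were above both NC libraries, and the difference was 0.08 on the log2 scale (0.03 to 0.13, exact test FDR 0.128). It was called by DESeq2 (FDR 0.0323), with library totals (0.0343) and with dispersions from NC and DEG alone (0.00345), and over all alternatives its FDR ran from 0.00345 to 0.479.

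ALPL had no call against NC with any compound. Relative to NC it differed by 0.29 on the log2 scale in RES (0.02 to 0.56, FDR 0.150), by -0.23 in POG (-0.51 to 0.05, FDR 0.279) and by -0.07 in DEG (-0.37 to 0.24, FDR 0.896). All 3 RES libraries were above, and all 3 POG libraries below, both NC libraries. In the order of ALPL levels, PC led with 6.63 ± 0.0463 CPM (SD, n = 2), followed by RES with 4.97 ± 0.332 (SD, n = 3), NC with 4.07 ± 0.491 (SD, n = 2), DEG with 3.88 ± 0.701 (SD, n = 2) and POG with 3.46 ± 0.210 (SD, n = 3). PC differed from RES, its neighbour (exact test FDR 0.00147, in a comparison that called 45.7% of all genes), and the other neighbours did not differ beyond their spread, with FDR between 0.150 and 0.896.

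**Figure D3:**
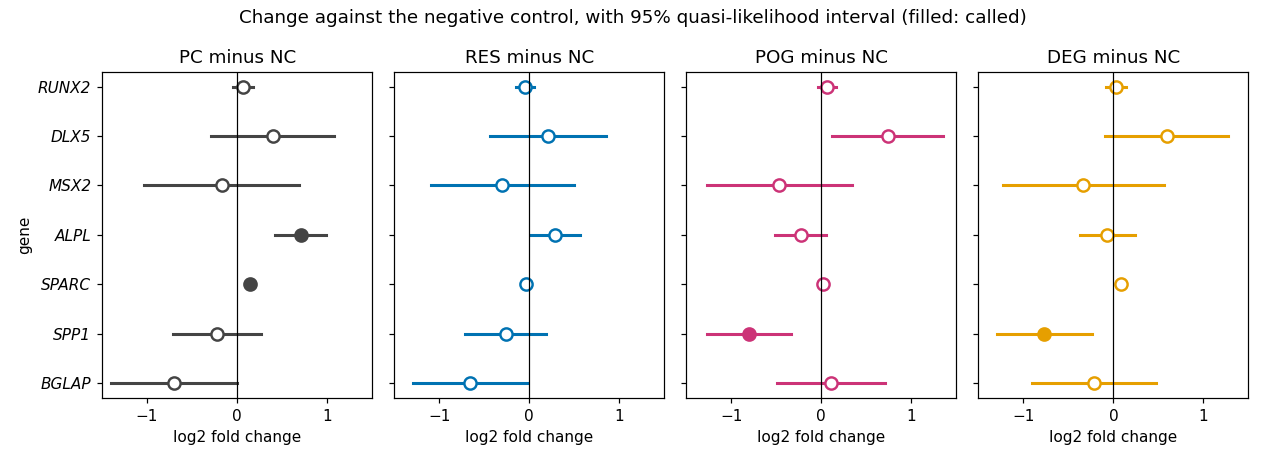
Log2 fold change of the 7 tested genes against NC in each of 4 comparisons (circles), with 95% intervals from the quasi-likelihood fit (bars); filled circles passed the exact test at an FDR under 0.05. ALPL and SPARC are filled for PC and SPP1 is filled for POG and DEG, while RES has no filled circle.

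BGLAP (ENSG00000242252.1; chromosome 1, 156242184 to 156243317, plus strand), a calcium-binding protein of mineralized matrix, had 48 and 36 reads in PC, 45 and 72 in NC, 51, 19 and 56 in RES, 90, 56 and 71 in POG, and 46 and 54 in DEG. The 19 reads of RES replicate 2, the library with the most detected genes, were the lowest count, and the 90 of POG replicate 1 the highest. Against NC no compound gave a call: the log2 difference was 0.10 for POG (-0.50 to 0.70, FDR 0.912), -0.66 for RES (-1.29 to -0.02, FDR 0.169) and -0.21 for DEG (-0.90 to 0.47, FDR 0.819). BGLAP shares 394 exon bases, 40.9% of its exon length, with the read-through gene PMF1-BGLAP on the same strand, which had 0 to 7 reads in a library, so that reads in the shared part could be split between the genes or left out of both.

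IBSP (ENSG00000029559.6; chromosome 4, 87799554 to 87812435, plus strand), which binds hydroxyapatite, had 0 reads in 11 libraries and 1 read in RES replicate 3. A count of 0 allows up to 3 reads over a group, or 0.0327 CPM in PC, 0.0382 in NC, 0.0221 in POG and 0.0384 in DEG. No difference was detectable at this depth.

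The compounds, given at the same dose, were also compared with each other, in 3 pairs. Resveratrol is a stilbene, and peonidin-3-O-glucoside is an anthocyanin that carries a sugar. Between POG and RES 3 of the 7 tested genes were called, where 27.9% of all genes were. ALPL was lower with POG than with RES by a factor of 1.44 (log2 fold change -0.52, SE 0.117, 95% interval -0.76 to -0.28, exact test FDR 6.46e-05). The POG libraries had 3.57, 3.22 and 3.59 CPM and the RES libraries 4.60, 5.23 and 5.09 CPM, without overlap. This call held in all 13 alternatives, with FDR up to 0.00240. The summed chondrocyte markers stood at 4.73 to 6.19 CPM in POG and 6.84 to 8.07 in RES, with SOX9 at 1.33 and 2.95 CPM, COL10A1 at 1.95 and 2.38, COL2A1 at 1.08 and 0.874 and SOX5 at 0.912 and 0.844 on average, and their part in the ALPL result was not tested.

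SPP1 was lower with POG than with RES (log2 fold change -0.55, SE 0.208, -0.97 to -0.12, exact test FDR 0.0344). Here 1.39 CPM in RES replicate 3 lay within the POG range of 0.954 to 1.51, and the call was lost in 6 of 13 alternatives, including the quasi-likelihood test (FDR 0.0515), DESeq2 (FDR 0.0699), and without RES replicate 1 (0.205), RES replicate 2 (0.112), POG replicate 1 (0.227) or POG replicate 2 (0.0806). BGLAP was 1.70-fold higher with POG (0.76, SE 0.273, 0.20 to 1.32, FDR 0.0235). Its RES libraries had 1.14, 0.425 and 1.26 CPM and its POG libraries 2.00, 1.27 and 1.53 CPM, which did not overlap. Without RES replicate 2 the BGLAP difference had an FDR of 0.246 and without POG replicate 1 of 0.179.

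Between DEG and RES 2 of the 7 genes were called, where 21.2% of all genes were. ALPL was lower with DEG (log2 fold change -0.36, SE 0.132, -0.63 to -0.09, exact test FDR 0.0364), at 3.38 and 4.37 CPM against 4.60 to 5.23 CPM in RES. That call was lost in 6 of 12 alternatives: the quasi-likelihood test (FDR 0.0563), DESeq2 (0.0846), no filter on low counts (0.0572), and without RES replicate 2 (0.116), RES replicate 3 (0.0924) or DEG replicate 1 (0.564). SPARC was 1.08-fold higher with DEG than with RES (0.11, SE 0.0241, 0.06 to 0.16, FDR 0.00246), and without DEG replicate 2 the FDR was 0.0904.

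Between DEG and POG 0 of the 7 genes were called by the exact test, where 1.05% of all genes were. In that test 0 of the 7 had an unadjusted p under 0.05, a threshold for which the share of all genes was not counted. The quasi-likelihood test also called 0, as did DESeq2 among the genes for which it gave an adjusted p. The differences were 0.16 for ALPL (-0.12 to 0.45, FDR 0.750), 0.04 for SPP1 (-0.48 to 0.55, FDR 1.00), -0.14 for DLX5 (-0.72 to 0.44, FDR 0.943) and -0.32 for BGLAP (-0.93 to 0.30, FDR 0.794). These intervals leave room for differences of the size seen between POG and RES in SPP1 and BGLAP. SPARC was 0.06 higher with DEG on the log2 scale (0.01 to 0.11, exact test FDR 0.471), and the libraries did not overlap. Of 12 alternatives, SPARC was called in 1, with dispersions from DEG and POG alone (exact test FDR 0.00980).

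Taking the 5 groups together, the quasi-likelihood F test found a difference for ALPL (FDR 1.75e-06), SPARC (FDR 4.38e-06) and SPP1 (FDR 0.0120), 3 of the 7 tested genes, where 55.8% of all genes were called. BGLAP (0.0570), DLX5 (0.172), RUNX2 (0.175) and MSX2 (0.845) were not called. BGLAP lay near the threshold: it passed this F test with no filter (FDR 0.00276), with genes averaging at least 1 CPM (0.0442) and with library totals (0.0490). It also passed without RES replicate 3 (0.0296) and without POG replicate 2 (0.0424). It did not pass with DESeq2 size factors (0.0572) or the DESeq2 likelihood ratio test (0.0741). Over all alternatives its FDR ran from 0.00276 to 0.183. Whether BGLAP or RUNX2 passed this F test depended on which library was left out. The 7 comparisons made with NC (4) and between compounds (3) gave 49 pairs of a tested gene and a comparison. Of these pairs, 9 were called and 32 were never called in any alternative. In the same comparisons the share of all genes called ran from 1.05% (DEG against POG) to 42.4% (PC against NC). For pairs never called, no share over all genes was counted, so neither count sets these genes apart.

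**Figure D4:**
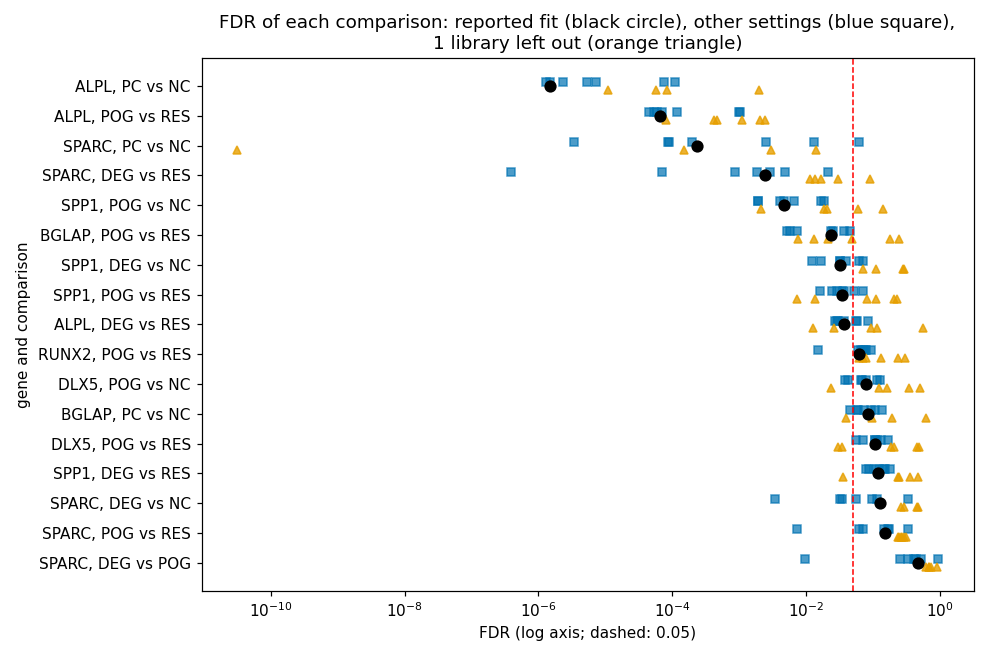
FDR (log axis) of each gene and comparison that was called in at least 1 setting: the value reported (black circle), other tests, scalings and filters (blue squares), and fits with 1 library left out (orange triangles), with the threshold of 0.05 as a dashed line. ALPL in PC vs NC and in POG vs RES stays left of the line throughout, while SPP1 in DEG vs NC lies on both sides of it.

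Other genes of the osteoblast programme were read alongside. Of 18 further transcription factors and cofactors 17 were tested, of 25 further matrix and mineral genes 19, and of 6 receptors for matrix proteins 6. With serum, 4 of the transcription factors rose and 4 fell, 5 of the matrix and mineral genes rose and 5 fell, and 3 receptors rose and 3 fell. Over all genes tested 21.4% rose and 20.9% fell. With library totals in place of TMM the matrix genes split 3 higher to 5 lower and the factors 4 to 6. FOSL1, a subunit of the AP-1 factor, had the largest rise among the factors. It stood at 142.9 ± 1.43 CPM in NC (SD, n = 2) and 389 ± 22.1 CPM in PC (SD, n = 2), a log2 difference of 1.45 (SE 0.0378, exact test FDR 2.98e-258).

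Without serum, the called matrix and mineral genes were mostly lower with the compounds than in NC: 9 lower and 0 higher with POG, 8 lower and 0 higher with DEG, and 7 lower and 1 higher (ANKH, a pyrophosphate transporter gene) with RES. Over all genes tested, 5.93% were higher and 8.57% lower with POG, 3.52% and 6.11% with DEG, and 4.94% and 6.21% with RES. The medians of the 19 matrix and mineral genes were -0.10, -0.15 and -0.12 on the log2 scale, against 0.00 over all genes tested in each comparison. With library totals in place of TMM, 8, 8 and 7 of the 19 were lower and 0, 0 and 1 higher. Over all genes that scaling gave 1497 higher and 1179 lower with POG, 844 and 868 with DEG, and 1236 and 695 with RES. The medians of the 19 were then -0.08, -0.13 and -0.09, against 0.03, 0.02 and 0.03 over all genes. LUM, the collagen-binding proteoglycan lumican, was at 30.9 ± 1.38 CPM in NC (SD, n = 2), 18.9 ± 1.87 with POG (SD, n = 3), 18.5 ± 0.998 with DEG (SD, n = 2), 19.7 ± 1.48 with RES (SD, n = 3) and 14.6 ± 2.10 in PC (SD, n = 2). On the log2 scale LUM fell by 0.71 with POG, 0.74 with DEG, 0.65 with RES and 1.07 in PC. DCN, the proteoglycan decorin, also fell in all 4, by 0.26 with POG, 0.55 with DEG, 0.61 with RES and 0.85 in PC. All 4 comparisons use the same 2 NC libraries, so these falls are not independent of each other.

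The type I collagen chains changed little in size. COL1A1 fell by 0.17 with POG and 0.20 with DEG on the log2 scale and was not called with RES (-0.07, FDR 0.115, called in 3 of 12 alternatives) or in PC (0.01, FDR 0.856). COL1A2 fell by 0.27 with POG, 0.26 with DEG and 0.16 with RES, and its PC difference was 0.08 (FDR 0.0532, called in 6 of 11 alternatives). POSTN, the matrix protein periostin, rose 2.00-fold in PC (log2 fold change 1.00, SE 0.0435) and fell by 0.35 with POG and 0.22 with DEG, the latter with an FDR of 0.0818 without NC replicate 2. With RES POSTN differed by -0.12 (FDR 0.0628).

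The receptors through which SPP1 and IBSP are bound were expressed in every group, 6 of 6 above 1 CPM. ITGB3, which pairs with ITGAV to form an SPP1 receptor, rose by 0.58 on the log2 scale in PC, from 10.6 to 15.9 CPM. It fell by 0.29 with POG (exact test FDR 0.0148), a call lost without NC replicate 1 (FDR 0.187), NC replicate 2 (0.0690) or POG replicate 2 (0.0902). CD44, ITGB5 and ITGAV had a lower group mean than NC in all 4 comparisons, which share the same NC libraries. Of the 6 receptors, 4 were called lower with POG, 2 with DEG and 2 with RES, and 0 higher with any compound. Over all genes tested, 8.57%, 6.11% and 6.21% were lower. With library totals in place of TMM, 3, 2 and 1 receptors were called lower.

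**Figure D5:**
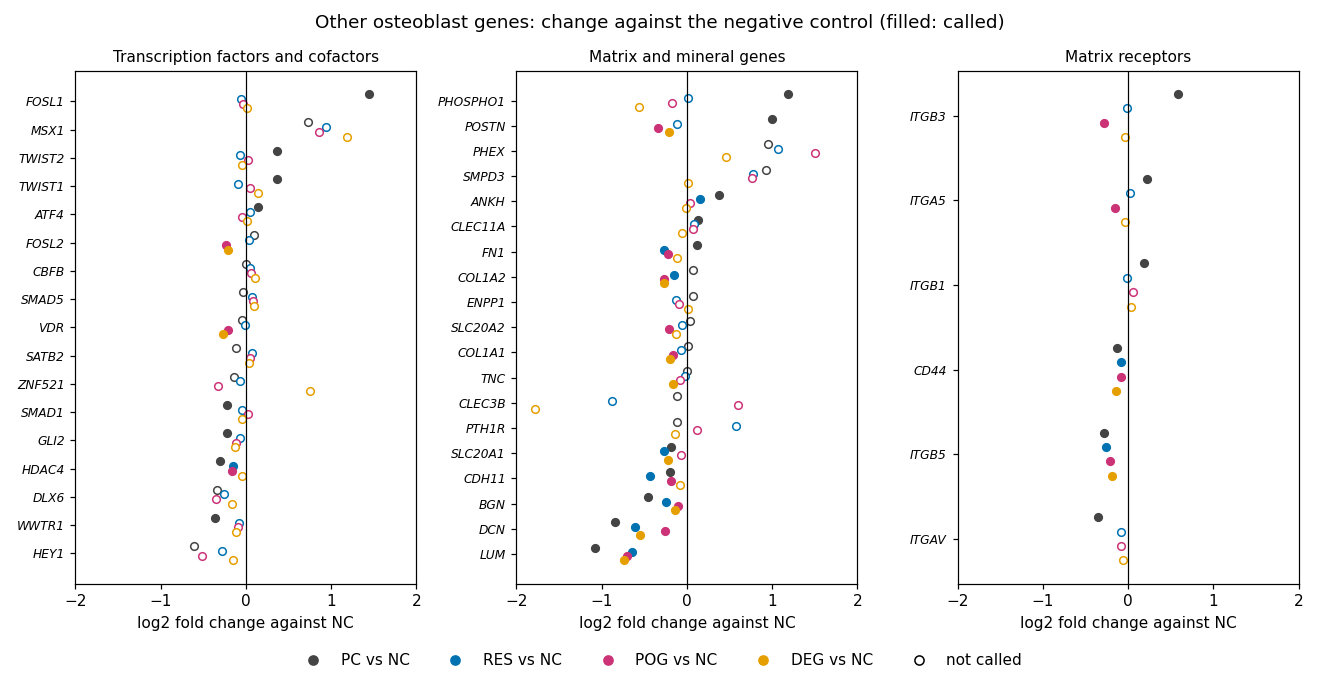
Log2 fold change against NC (x axis) of 17 further transcription factors and cofactors, 19 matrix and mineral genes and 6 matrix receptors in PC, RES, POG and DEG (colours); filled circles were called at an FDR under 0.05. FOSL1 and POSTN are filled on the right for PC, and LUM and DCN are filled on the left in all 4 comparisons.

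For each of the 9 genes that averaged at least 1 CPM, the tested genes most like it across the 12 libraries were found by Pearson's r of log2 CPM, over 13044 genes. These are descriptions over libraries that fall into 5 groups. For each gene they are the highest of 13044 values. How high r would run among unrelated genes was not worked out, so no r is read as a link. The 3 nearest to ALPL were KY (r = 0.97), RNF152 (0.96) and PTPRH (0.96), and those nearest to SPARC were RPL39 (0.98), LSM7 (0.98) and RPL21 (0.97). SPP1 was nearest to JAGN1 (0.94), CTDSP1 (0.89) and B3GNT2 (0.89), and BGLAP to FLVCR1-DT (0.86), MCC (0.85) and RAB38 (0.84). Among the 3 nearest to RUNX2 were GPR155 (0.85) and ZNRF3 (0.81), and among those nearest to DLX5 were ARMCX1 (0.81) and DRD4 (0.80).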

How the data were processed

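Messenger RNA of 12 hFOB 1.19 libraries was analysed (PC 2, NC 2, RES 3, POG 3, DEG 2). Of 13 labelled samples, DEG replicate 3 has no column in the table and was not analysed here. The authors deposited raw read counts per gene, not normalized. Per their methods, reads passed through FastQC, were aligned to hg38 with STAR (BWA MEM is also named) and were counted on Ensembl genes with featureCounts. The strand setting, the handling of multi-mapped reads, the program versions and the annotation release are not given in the sources used here. The kit selects strand, so counts of a gene and an opposite-strand neighbour may or may not have been separated: SPARC shares 191 exon bases with CLMAT3 and SPP1 shares 196 with an unnamed lncRNA, both on the opposite strand, while SUPT3H overlaps RUNX2 without a shared exon base.

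Identifiers were matched to symbols in a gene table (43214 of 43836). Coordinates and exon lengths are from GENCODE release 44, an hg38 annotation. In R 4.3.3 with edgeR 4.0.16, genes were filtered with filterByExpr by group (17092 left), libraries scaled by TMM, dispersions estimated over all 12 libraries (common biological coefficient of variation 3.21%), and groups compared with the exact test the authors name. P-values were adjusted over all tested genes by the method of Benjamini and Hochberg, and genes under a false discovery rate (FDR) of 0.05 are termed called. Standard errors and 95% intervals came from the quasi-likelihood fit, whose F test compared all 5 groups. The test was checked on simulated counts.

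The genes and lists were chosen with earlier results of these data known. Text names all 9 genes; listed genes called against NC with an absolute log2 fold change of at least 0.5 and at least 1 CPM (at most 8 per list); COL1A1 and COL1A2; the 3 most similar genes per member; and overlapping genes. Some genes this rule chose are not reported here. ANKH, CD44, ITGB5 and ITGAV were named after their values were seen. Alternatives were the quasi-likelihood test, DESeq2 1.42.0, DESeq2 size factors or library totals for scaling, no filter, only genes averaging 1 CPM or more, dispersions from the compared groups, and each library left out. Replicate numbers follow accession order and are only names. Poisson intervals and limits cover counting error only, since the reads carry no molecular identifiers.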

Additional observations from a re-analysis of the deposited data

Results flagged for a closer look

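A total of 5 differences between compounds passed the exact test of that difference and were picked out for a closer look. The ALPL difference of POG from RES was -0.52 on the log2 scale, the SPP1 difference -0.55 and the BGLAP difference 0.76. For DEG against RES they were -0.36 in ALPL and 0.11 in SPARC. In ALPL, RES lay above NC in 3 of 3 libraries and POG below NC in 3 of 3, and neither compound was called against NC. The BGLAP difference was 0.41 at the smallest of its alternatives, and RES replicate 2, which also had the most detected genes, carried the lowest BGLAP count. The part of that library's larger number of detected genes was not tested.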

How the results depend on the processing

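None of the 9 calls among these genes (4 comparisons with NC and 3 between compounds) changed sign under an alternative that was run. Among the 9 genes, dispersions from the compared groups gave 1 call in place of 2 for PC against NC, 2 in place of 1 for POG and for DEG against NC, 5 in place of 3 for POG against RES, and 1 in place of 0 for DEG against POG (SPARC higher). Over all genes tested, PC against NC then had 3038 higher and 2888 lower, from 3665 and 3580. POG against NC had 1577 and 2043, from 1014 and 1464, and DEG against NC 1103 and 1470, from 602 and 1044. POG against RES had 2916 and 2937, from 2348 and 2415, and DEG against POG 495 and 343, from 94 and 85. These counts do not set the 9 genes apart. A mean of at least 1 CPM gave 2 for POG against NC, where 1076 of all 13406 genes were higher and 1460 lower. For DEG against NC the quasi-likelihood test gave 0 and library totals 2 (SPP1 lower, SPARC higher), while for DEG against RES the quasi-likelihood test, DESeq2 and no filter each gave 1 in place of 2. Over all genes, DEG against NC had 504 higher and 932 lower by quasi-likelihood, and 844 and 868 with library totals. DEG against RES had 1658 and 1694 by quasi-likelihood, 1607 and 1513 by DESeq2, and 1446 and 1658 of 29555 genes with no filter. Leaving out 1 library gave 2 to 3 calls for PC, 0 to 0 for RES, 0 to 2 for POG and 0 to 0 for DEG against NC, 1 to 4 for POG against RES, 1 to 2 for DEG against RES and 0 to 0 for DEG against POG. The number of genes that differed among the 5 groups was 3 to 5. Counts of other osteoblast genes were 21 to 25 for PC, 8 to 10 for RES, 11 to 14 for POG and 10 to 13 for DEG, from 24, 11, 16 and 12 with all libraries. With 2 libraries in a group, the lone one left was assumed to vary like the other groups. No share over all genes is given for the fits with 1 library left out, so their counts do not set these genes apart. DESeq2 gave no adjusted p for MSX2 in 3 comparisons or for DLX5, ALPL, SPP1 and BGLAP in DEG against POG, and these were left out. The cause of these changes was not tested. Counts under about 100 reads limit DLX5, MSX2, SPP1 and BGLAP, and SP7 and IBSP were below the test. No paired analysis was possible because the labels give no replicate numbers.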
